A study of Mus musculus with 9 samples.

Results

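The late cornified envelope (Lce) and small proline-rich (Sprr) genes were followed in the back skin of mice with a chemically induced dermatitis. Members were taken by name from the annotated expression table, as the genes whose symbol starts with Lce or Sprr together with Lor, Ivl, Kprp, Cnfn and Crct1. This gave 41 of 34637 genes, of which 20 were Lce genes and 16 were Sprr genes. On the GRCm38 (mm10) build, 40 of them lay on chromosome 3 between positions 92080271 and 93019060, in the region known as the epidermal differentiation complex, and Cnfn lay on chromosome 7.

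All mice were male C57BL/6 mice of 6 to 8 weeks with shaved back skin. In both groups the skin was sensitized on day 1 with 200 μL of 1% DNCB, a small reactive molecule that raises a contact allergy, and painted again with 100 μL of 0.5% DNCB on several days from day 4 to day 21. The FJDHF-M group then received the Fangji Dihuang formulation (FJDHF), a mixture of plant drugs used in Traditional Chinese Medicine, by mouth each day after day 7 until day 28, and the Model group received the same amount of water. The comparison asks which genes of the inflamed skin differ in level under the formulation, and skin that was never exposed to DNCB was not analysed here.

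RNA-seq libraries of 4 Model mice and 5 FJDHF-M mice were used. The data columns carry codes that the labels do not explain. MR1, MR3, MR3_4, MR4_5 and MR5 were read as FJDHF-M libraries, and MXL1, MXL12, MXL3_4 and MXL_3 as Model libraries, because the group sizes fit and MX abbreviates the Chinese term for a disease model. The codes do not say which mouse a library came from, and codes such as MR3_4 may or may not stand for pooled RNA. Every direction given here rests on this assignment.

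Keratinocytes of the outer epidermis replace their plasma membrane with the cornified envelope, a shell of proteins that transglutaminases crosslink and to which lipids are attached. Involucrin (Ivl) is an early scaffold of this shell, loricrin (Lor) is its main reinforcing protein, and the Sprr and Lce proteins are small crosslinked components. In skin, Lce1 genes are known as markers of normal terminal differentiation, whereas Sprr1, Sprr2 and Lce3 genes are known to respond to stress, wounding and inflammation.

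The promoters of these genes show how the subfamilies differ in sequence. RefSeq promoters (GRCm38.p6), each covering 250 bases before and 50 bases after the annotated start, matched 36 of the 41 members. Sprr2g, Sprr2j-ps, Lce1f, Kprp and Crct1 had no entry. The letters TGANTCA, which AP-1 factors bind and which read the same on both strands, were present in 11 of the 36 members' promoters (30.6%) and in 7.81% of all 32851 promoters of this length. They were found in Lor, Ivl, Sprr1a and Sprr1b and in 7 of the 10 Sprr2 promoters, and in 0 of the 13 Lce1 and 0 of the 5 Lce3 promoters. The TATA box letters TATAAA, searched on both strands, were present in 16 members' promoters (44.4%) and in 13.6% of all promoters, and in Lce1 in Lce1d and Lce1m only. The same 7 Sprr2 promoters held TGANTCA from 198 to 193 bases before the start and TATAAA at base 29 before it. The Sprr2a1, Sprr2a2 and Sprr2a3 promoters held neither, and those of Sprr2a1 and Sprr2a2 were 100% identical. Sprr2a1 and Sprr2a2 made up 61.9% to 89.4% of the summed Sprr2 level in a library. No match of TGANTCA overlapped one of TATAAA in the stretches printed here.

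The 200 bases before the RefSeq start are given for 8 members whose levels the results turn on, from the 5′ end to the 3′ end of the gene's strand, with TGANTCA and TATAAA in capitals. They lie on GRCm38.p6 at chr3:92083143-92083342 for Lor, chr3:92573736-92573935 for Ivl, chr3:92485882-92486081 for Sprr1a, chr3:92438780-92438979 for Sprr1b, chr3:92687211-92687410 for Lce1d and chr3:92709075-92709274 for Lce1e, all on the minus strand, and at chr3:92316505-92316704 for Sprr2b and chr3:92338940-92339139 for Sprr2d, on the plus strand.
Lor: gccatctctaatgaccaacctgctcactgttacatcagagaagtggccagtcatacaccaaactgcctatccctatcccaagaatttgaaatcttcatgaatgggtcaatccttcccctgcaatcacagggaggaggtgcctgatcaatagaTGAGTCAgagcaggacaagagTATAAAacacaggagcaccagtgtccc
Ivl: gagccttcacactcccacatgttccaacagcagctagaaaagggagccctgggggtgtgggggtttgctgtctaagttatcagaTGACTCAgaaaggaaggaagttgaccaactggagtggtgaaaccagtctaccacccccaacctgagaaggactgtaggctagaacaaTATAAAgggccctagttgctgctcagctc
Sprr1a: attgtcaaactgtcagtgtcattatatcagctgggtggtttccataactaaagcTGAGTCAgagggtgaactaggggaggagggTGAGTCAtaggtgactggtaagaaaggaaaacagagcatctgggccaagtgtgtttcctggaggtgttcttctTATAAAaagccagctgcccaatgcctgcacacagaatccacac
Sprr1b: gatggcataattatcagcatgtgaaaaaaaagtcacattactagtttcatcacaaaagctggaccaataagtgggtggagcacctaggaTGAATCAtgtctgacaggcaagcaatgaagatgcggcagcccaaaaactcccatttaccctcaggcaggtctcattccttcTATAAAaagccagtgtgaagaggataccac
Sprr2b: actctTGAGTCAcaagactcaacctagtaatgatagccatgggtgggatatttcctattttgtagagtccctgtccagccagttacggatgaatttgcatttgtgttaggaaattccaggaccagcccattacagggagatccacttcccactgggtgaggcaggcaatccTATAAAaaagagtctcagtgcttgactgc
Sprr2d: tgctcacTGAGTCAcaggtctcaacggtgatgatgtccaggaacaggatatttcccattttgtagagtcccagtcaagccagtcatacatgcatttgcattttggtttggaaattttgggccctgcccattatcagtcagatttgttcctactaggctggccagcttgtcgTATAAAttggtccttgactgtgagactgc
Lce1d: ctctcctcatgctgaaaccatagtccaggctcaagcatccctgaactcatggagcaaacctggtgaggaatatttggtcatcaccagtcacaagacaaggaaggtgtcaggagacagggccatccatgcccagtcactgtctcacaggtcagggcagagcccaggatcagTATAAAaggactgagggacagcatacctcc
Lce1e: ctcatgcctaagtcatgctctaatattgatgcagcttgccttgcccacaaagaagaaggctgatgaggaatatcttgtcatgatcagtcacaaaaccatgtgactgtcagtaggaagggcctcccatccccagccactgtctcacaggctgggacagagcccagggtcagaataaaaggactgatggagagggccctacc
Each match is only a stretch of letters in this window. The stretches of Sprr2b, Sprr1a and Sprr1b run into the deposited gene models, since the RefSeq starts lie inside these. For Sprr2b the deposited model begins at position 92316620, so the TATAAA printed for it lies within that model. The antioxidant response element letters TGACNNNGC were in 7 of 36 members' promoters (19.4%, 12.4% of all promoters) and the AP-2 letters GCCNNNGGC in 2 (5.56%, 16.6% of all), while the grainyhead-like letters AACNGGTT and the C/EBP letters TTGCNNCAA were in 0 (2.09% and 2.08% of all).

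Total counts per library lay between 74648669 and 79474215, so depth was similar in all libraries. The 41 members together took 0.0286% to 0.0949% of the counts of a library, with both the lowest share (MXL_3) and the highest (MXL1) in the Model group. Levels in a library are given as CPM, counts scaled to the size of the library with TMM factors. A count of 3 corresponds to 0.0375 to 0.0415 CPM, a limit that covers counting error only. Counts of every pair of libraries differed by far more than sampling noise (chi-square per degree of freedom of 126 to 587). Every library held RNA of all 15 basal keratinocyte markers tested, and also of skeletal muscle, hair follicle, fat and fibroblast markers, so the samples were whole skin with underlying tissue. In such bulk RNA, fewer cornifying cells and less RNA per cell cannot be told apart.

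Most members had a higher mean level in the FJDHF-M group than in the Model group, but no single member passed the adjusted test. Of 34 members with enough counts to be tested, 30 had a log2 fold change above 0 in edgeR's quasi-likelihood fit, against 44.1% of all 20817 genes tested, and 26 had one of at least 0.5, against 6.62% of all genes. Their median log2 fold change was 0.66, and that of all genes tested was -0.03. These counts are a description, since the members share libraries and many of them move together. At an adjusted p under 0.05, 0 members and 0 of all genes (0%) were called by edgeR, and the smallest adjusted p among members was 1.00.

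Without adjustment, 3 members had p under 0.05 in edgeR (Sprr2d, Ivl and Lce3c), against 1.57% of all genes, and all 3 were on the higher side, where 0.773% of all genes lay. With a fold of at least 2 added, Sprr2d and Lce3c were left on the higher side, against 0.432% of all genes, and 0 members on the lower side, against 0.476%. DESeq2's Wald test called 0 members and 12 of 34420 genes (0.0349%), and its smallest adjusted p among the named members was 0.278, for Sprr2d. The 2 groups did not overlap for 1 member, Ivl, which was higher in FJDHF-M (0.231% of all genes), and for 0 members on the lower side (0.283%). In the two-sided exact permutation test over the 126 ways to split 9 libraries, 2 members had p under 0.05, Ivl and Lce3c, against 1.93% of all genes. Lce3c passed the filter on low counts only through FJDHF-M libraries, which favoured the higher side, so these counts are to be read without it.

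**Figure D1:**
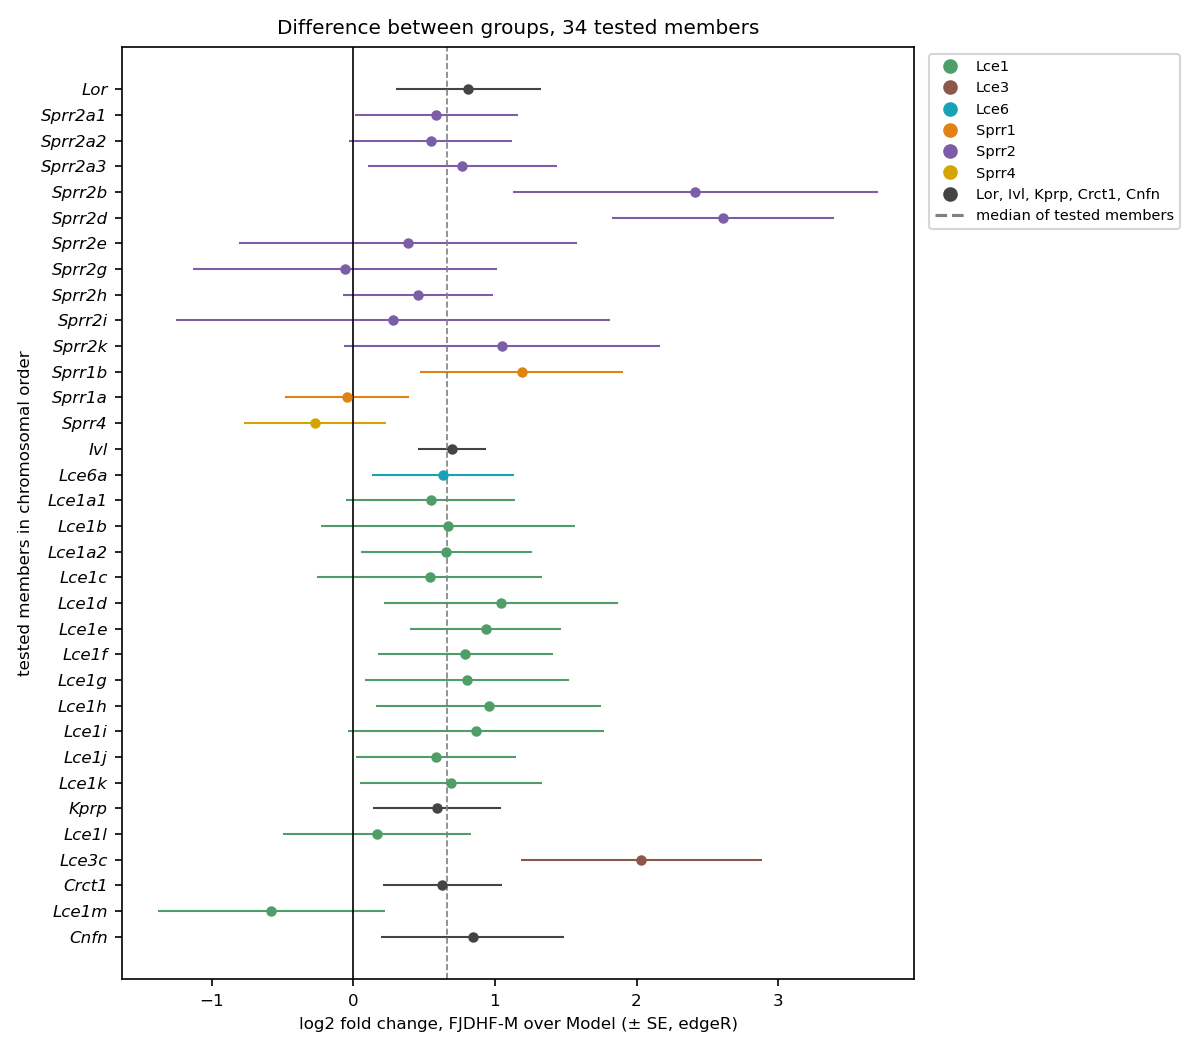
Log2 fold change of FJDHF-M over Model (x axis, edgeR, bars are ± 1 SE) for the 34 tested members in chromosomal order (y axis), coloured by subfamily. Points of 30 members lie above 0, and only Sprr2g, Sprr1a, Sprr4 and Lce1m lie below it. Measured from end to end, all bars except those of Ivl, Sprr2d and Lce3c are wider than the difference itself, and many reach 0.

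Involucrin differed most evenly between the groups. Its level was 189, 208, 179.7, 165 and 172 CPM in MR1, MR3, MR3_4, MR4_5 and MR5, and 161, 86.7, 135 and 67.6 CPM in MXL1, MXL12, MXL3_4 and MXL_3. The FJDHF-M libraries lay close together, the Model libraries were spread more widely, and the highest Model library was just under the lowest FJDHF-M library. Means were 183 ± 16.6 (SD, n = 5) and 113 ± 43.0 CPM (SD, n = 4), which is 0.70 ± 0.24 (SE) as a log2 fold change. The unadjusted edgeR p was 0.0159, the adjusted p 1.00, and the exact permutation p 0.00794, the smallest that this design can give. The gap to MXL1 closed with DESeq2's size factors, under which the groups overlapped.

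Loricrin overlapped between the groups. It stood at 44.3, 17.9, 30.5, 18.2 and 10.1 CPM in the FJDHF-M libraries, in the order given above, and at 26.9, 6.19, 7.87 and 14.2 CPM in the Model libraries. MR5 was the lowest of its group, and MXL1 was above 3 of the 5 FJDHF-M libraries. Loricrin's log2 fold change was 0.81 ± 0.51 (SE) with an unadjusted edgeR p of 0.143 and an exact permutation p of 0.175. Per length, loricrin was not among the highest members, with 12.9 ± 6.88 FPKM (SD, n = 5) against 7.34 ± 5.20 FPKM (SD, n = 4), which ranked it at place 12 of 41, while involucrin had 91.2 ± 9.04 and 55.5 ± 22.4 FPKM.

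Kprp, Crct1 and Cnfn followed loricrin. Kprp, a keratinocyte proline-rich protein of the upper epidermis, stood at 203, 129, 159.6, 108 and 62.1 CPM in FJDHF-M and at 186, 45.8, 64.9 and 55.0 CPM in Model. MXL1 was again within the range of the FJDHF-M libraries, and the other Model libraries lay near or below MR5, the lowest FJDHF-M library. Kprp had a log2 fold change of 0.59 ± 0.45 (SE, unadjusted p = 0.221). Crct1, a small cysteine-rich protein encoded beside the Lce genes, had 30.0, 15.5, 26.6, 17.5 and 8.39 CPM against 22.6, 8.94, 11.6 and 7.61 CPM, and a log2 fold change of 0.63 ± 0.42 (unadjusted p = 0.165). Cornifelin (Cnfn), a component of the envelope encoded on chromosome 7, had 14.6, 19.4, 12.8, 14.1 and 2.32 CPM against 16.5, 2.26, 5.03 and 4.44 CPM. Here MR5 stood far below the rest of its group, and MXL1 far above the rest of the Model group. Cnfn had a log2 fold change of 0.84 ± 0.65 (unadjusted p = 0.221).

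**Figure D2:**
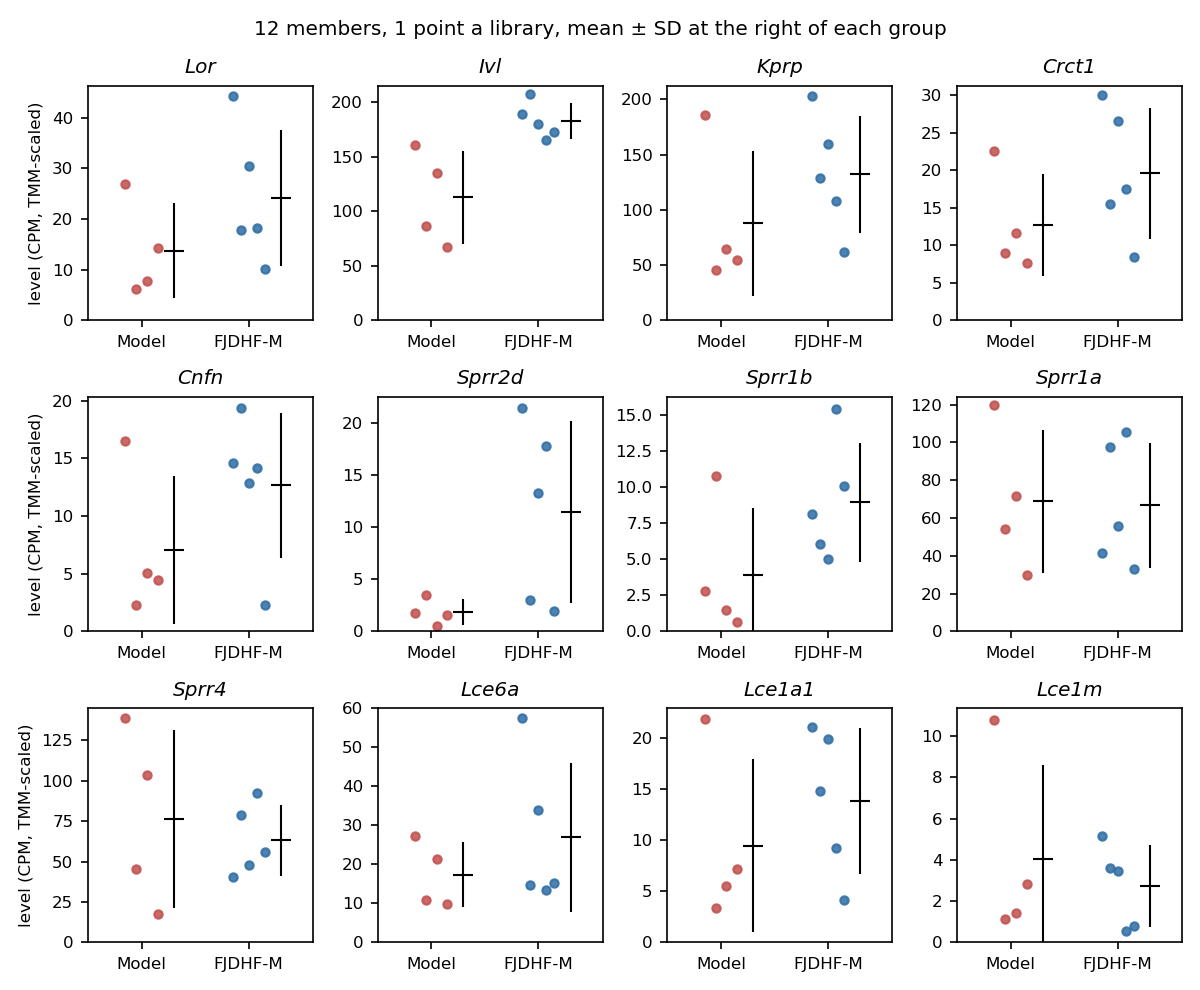
Level in CPM scaled by TMM (y axes, each starting at 0) of 12 members in the Model and FJDHF-M groups, with 1 point for each library and the mean ± SD beside the points; SD bars that would pass below 0 stop at the axis. Only for Ivl do all FJDHF-M points lie above all Model points, and 1 Model library (MXL1) is high for Lor, Kprp, Crct1, Cnfn, Lce1a1 and Lce1m.

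The 14 Lce1 genes, the large late-differentiation subfamily, were all detected and all tested. Their summed level was 134, 77.1, 104.8, 58.0 and 16.4 CPM in the FJDHF-M libraries and 122, 15.8, 25.8 and 39.5 CPM in the Model libraries. Each group thus held a library at the top and a library at the bottom of the range, and the groups overlapped across nearly all of it. Fold changes were above 0 on the log2 scale for 13 of the 14 genes, with a median of 0.68, a range of -0.58 to 1.04 and standard errors of 0.53 to 0.90, and unadjusted p ran from 0.109 to 0.808. For the sum of the 14 genes it was 0.62.

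Among the single Lce1 genes, Lce1d had the highest fold change of the subfamily. It stood at 12.4, 7.39, 9.69, 5.13 and 0.625 CPM in FJDHF-M and at 8.60, 0.715, 1.54 and 2.79 CPM in Model, with a log2 fold change of 1.04 ± 0.83 (SE, unadjusted p = 0.235). Lce1e, which had the smallest unadjusted p of the subfamily, gave 9.96, 3.94, 7.77, 4.51 and 1.91 CPM against 5.91, 1.71, 2.17 and 1.95 CPM, and 0.94 ± 0.53 (unadjusted p = 0.109). MR5 was the lowest of all libraries in Lce1d and lay within the Model range in Lce1e. Lce1a1, the most abundant Lce1 gene at 18.6 ± 9.27 FPKM (SD, n = 5) against 12.8 ± 11.8 FPKM (SD, n = 4), gave 0.55 ± 0.60. Lce1m, at the far end of the cluster beside Crct1, was the only Lce1 gene below 0, with 5.18, 3.61, 3.44, 0.554 and 0.777 CPM against 10.8, 1.15, 1.43 and 2.82 CPM and -0.58 ± 0.80, a sign that turned to 0.59 without MXL1.

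Leaving out 1 Model library widened these differences. Without MXL1 the median log2 fold change of the tested members was 1.26, and the count with an unadjusted p under 0.05 and at least 2-fold higher was 13 in place of 2: Lor, Kprp, Crct1, Cnfn, Sprr2d and 8 Lce1 genes. Over all genes the share past this rule was 1.25% in that fit and 0.432% with all libraries. Without MXL1 the log2 fold changes of Lor, Kprp, Crct1, Cnfn, Lce1a1, Lce1d and Lce1e were 1.36, 1.26, 1.06, 1.69, 1.38, 2.07 and 1.53. Without MR1, the highest FJDHF-M library in most of them, those of Lor, Kprp, Crct1 and Lce1e were 0.46, 0.37, 0.41 and 0.61, and without MXL12 those of Lce1a1, Lce1d and Cnfn were 0.27, 0.71 and 0.55. No member passed the adjusted test in the fit without MXL1 either, the smallest adjusted p of a member being 0.983. MXL1 also had the highest basal keratinocyte score of all 9 libraries, 7.81 against 6.28 to 7.57 in the others, where a score is the mean of log2(CPM + 0.5) over a marker list. Whether this had a part in its high Lce1 level was not tested.

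Lce6a, the single member of its subfamily, stood at 57.6, 14.7, 33.9, 13.5 and 15.2 CPM in FJDHF-M and at 27.3, 10.8, 21.5 and 9.96 CPM in Model. MR1 alone was over 50 CPM, and 3 of the 5 FJDHF-M libraries lay inside the Model range. This gave a log2 fold change of 0.63 ± 0.50 (SE, unadjusted p = 0.236), and without MR1 it was 0.14.

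The 5 Lce3 genes, which are known as injury-induced members, were close to the limit of detection. Only Lce3c passed the filter, through 4 FJDHF-M libraries and no Model library, with 21, 18, 22, 47 and 7 counts in FJDHF-M and 6, 8, 8 and 0 counts in Model. MR5 was within the Model range and the other FJDHF-M libraries were above it. Since the filter was met only in the group where it was high, its values are a description, with a log2 fold change of 2.03 ± 0.85 (SE), an unadjusted edgeR p of 0.0372, an adjusted p of 1.00 and an exact permutation p of 0.0317 (n = 5 and 4). Lce3a, Lce3d, Lce3e and Lce3f had at most 21, 41, 45 and 102 counts in any library, each time in MR4_5. A read-length stretch of 150 bases of an Lce3c transcript was found unchanged in another member's transcripts for 15.1% of its positions, and for 36.8% of those of Lce3f, so single Lce3 counts are uncertain.

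Sprr2 genes differed among themselves more than Lce1 genes did. Their summed level was 99.95, 63.3, 147, 216 and 137 CPM in FJDHF-M and 105, 162, 20.5 and 48.3 CPM in Model. MXL12, the lowest of all libraries in Lce1, was the highest Model library here, and MXL3_4 was the lowest of all. Of the 12 genes 10 were tested and 9 had a log2 fold change above 0, with a median of 0.57, and the sum gave 0.66. Sprr2a1 and Sprr2a2, most of whose reads cannot be told apart, made up 61.9% to 89.4% of this sum in a library. Whether a shared read was counted for both genes is not known. The other 10 genes together had 38.0, 13.3, 27.9, 42.1 and 17.0 CPM in FJDHF-M and 12.4, 27.9, 6.26 and 5.13 CPM in Model.

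Sprr2d carried the largest difference of all members. Its level was 21.5, 2.99, 13.2, 17.8 and 1.95 CPM in FJDHF-M and 1.78, 3.53, 0.568 and 1.62 CPM in Model. Levels over 10 CPM were seen in MR1, MR3_4 and MR4_5, whereas MR3 and MR5 lay within the Model range. The log2 fold change was 2.61 ± 0.78 (SE), with an unadjusted edgeR p of 0.00723, an adjusted p of 1.00 and an exact permutation p of 0.0794 (n = 5 and 4). It stayed between 2.23 and 3.12 when single libraries were left out.

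Other Sprr2 genes showed how much 1 Model library can weigh. Sprr2b had 101, 8, 81, 63 and 18 counts in FJDHF-M and 0, 36, 0 and 4 counts in Model, and Sprr2g had 54, 46, 56, 148 and 34 counts against 8, 254, 6 and 7. In both genes MXL12 stood apart from the rest of the Model group, and in Sprr2g it was the highest of all libraries. The log2 fold change was 2.42 ± 1.29 (SE, unadjusted p = 0.0897) for Sprr2b and -0.06 ± 1.08 (unadjusted p = 0.957) for Sprr2g, and without MXL12 it was 5.20 and 3.23. In the fit without MXL12 both genes passed the filter on low counts only through FJDHF-M libraries. Sprr2a1 and Sprr2a2 had nearly the same counts in every library, with 31.5, 24.8, 59.9, 88.5 and 60.9 CPM against 45.7, 67.1, 7.17 and 21.7 CPM for Sprr2a1. Their annotated exons overlap on the same strand and 89.6% of the 150-base windows of Sprr2a1 transcripts occur in another member. Most reads of the 2 thus cannot be told apart here. Their log2 fold changes were 0.59 ± 0.58 and 0.55 ± 0.58 (SE), and they were 0.25 and 0.21 without MXL3_4 and 1.10 and 1.05 without MXL12. The other members of the subfamily that were tested ranged from 0.28 to 1.05. Sprr2f and Sprr2j-ps had at most 77 and 26 counts in a library, both in MXL12, and were not tested.

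Sprr1b, which like Sprr1a encodes a crosslinked envelope precursor, was on the side of the Sprr2 genes. It stood at 8.17, 6.05, 5.03, 15.5 and 10.1 CPM in FJDHF-M and at 2.83, 10.8, 1.48 and 0.623 CPM in Model. All Model libraries except MXL12 lay below all FJDHF-M libraries. The log2 fold change was 1.19 ± 0.72 (SE, unadjusted p = 0.127), and 2.44 without MXL12. In that fit the groups did not overlap for 5 members in place of 1, namely Ivl, Sprr1b, Sprr2b, Sprr2d and Sprr2g. At an unadjusted edgeR p under 0.05 and at least 2-fold higher were 6 members, Sprr1b, Sprr2b, Sprr2d, Sprr2g, Sprr2i and Lce3c. Of these, Sprr2b, Sprr2g, Sprr2i and Lce3c passed the filter on low counts in that fit only through FJDHF-M libraries, which favoured the higher side. Both counts are thus to be read without these genes. With 3 Model libraries groups are apart more often, and the shares over all genes in that fit were 0.708% apart on the higher side, against 0.231% with all libraries, and 0.717% at that p and fold, against 0.432%. The smallest adjusted p of a member was 1.00. MXL12 also had the highest neutrophil score of all libraries, 4.30 against 1.73 to 3.21, and the highest activated keratinocyte score of the Model group, 5.52 against 3.30 to 4.05. Both marker lists hold S100a8 and S100a9, so these scores are not independent. Their part in the Sprr2 and Sprr1b levels of MXL12 was not tested.

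Sprr1a and Sprr4, the most abundant Sprr genes, did not share this direction. Sprr1a stood at 41.5, 97.7, 55.9, 106 and 32.9 CPM in FJDHF-M and at 119.5, 54.4, 71.5 and 30.1 CPM in Model, a log2 fold change of -0.05 ± 0.44 (SE, unadjusted p = 0.920). Sprr4 stood at 40.6, 79.0, 48.1, 92.4 and 55.8 CPM against 139, 45.1, 104 and 17.6 CPM, a log2 fold change of -0.27 ± 0.50 (unadjusted p = 0.598). In both genes the Model group held the highest and the lowest library. The sign of both turned on log2(FPKM + 1) values and without MXL1, so no direction is given for either. Sprr4 led all members per length, with 264 ± 97.7 FPKM (SD, n = 5) and 314 ± 232 FPKM (SD, n = 4), but its annotated model has only 231 bases, less than the fragments sequenced, which makes its length scaling uncertain. Sprr3, which is known from oral and oesophageal epithelium, had at most 8 counts in any library and was not tested.

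**Figure D3:**
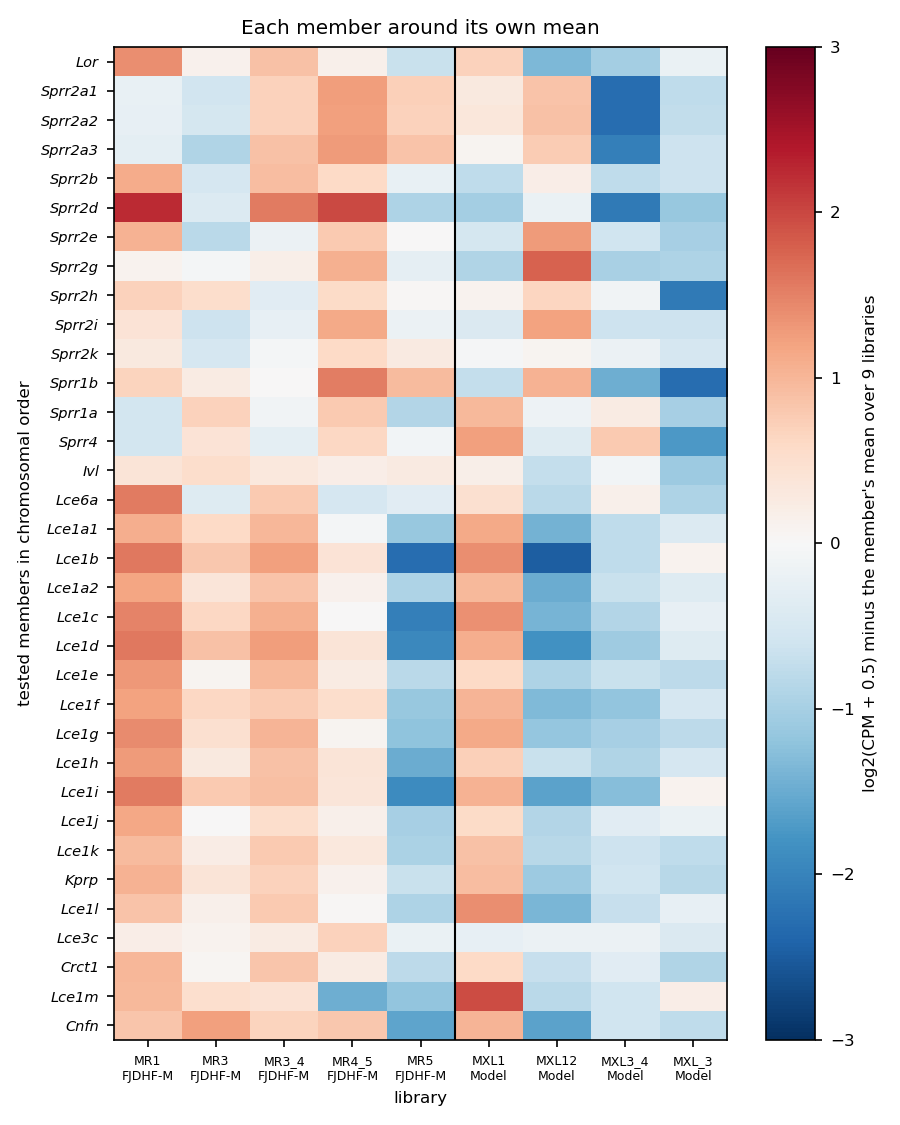
Level of each of the 34 tested members (rows, chromosomal order) in each library (columns, group under the code), as log2(CPM + 0.5) minus the member's mean over the 9 libraries, from low (blue) to high (red). Lce1 rows with Lor, Kprp, Crct1 and Cnfn are red in MR1, MR3_4 and MXL1 and blue in MR5 and MXL12, whereas most Sprr2 rows are blue in MXL3_4 and red in MR4_5 and MXL12.

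Across the 9 libraries, both groups together, the members fell into blocks that did not follow the groups. Pearson correlations of log2(CPM + 0.5) between pairs of Lce1 genes had a median of 0.94 and a range of 0.60 to 0.99, and without Lce1m the lowest was 0.86. Lor, Kprp, Crct1 and Cnfn had median correlations with the Lce1 genes of 0.93, 0.93, 0.90 and 0.90, although Cnfn lies on another chromosome. Pairs of Sprr2 genes had a median of 0.61, and Sprr1b had a median of 0.74 with them. Between Lce1 and Sprr2 genes the median was 0.05, with a range of -0.47 to 0.72. Sprr2d and, to a lesser degree, Sprr2b were exceptions. Sprr2d had 0.41 to 0.72 with the Lce1 genes other than Lce1m, 0.0031 with Lce1m, 0.65 with Lor and 0.67 with Crct1. Sprr2b, at 0.94 with Sprr2d, had 0.22 to 0.60, -0.11, 0.50 and 0.56 in the same order. These values describe 9 libraries, and the pairs share libraries, depth and, in Sprr2, reads.

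Among the remaining members, Lce6a was nearest to the Lce1 block, with a median of 0.69 with Lce1 and 0.04 with Sprr2 genes. Sprr1a and Sprr4, which are neighbours on the chromosome, had a correlation of 0.85 with each other, and Sprr1a had medians of 0.39 with Lce1 and 0.07 with Sprr2. Sprr1a and Sprr1b had a correlation of 0.18. Ivl had medians of 0.51 with Lce1 and 0.15 with Sprr2, and Lce3c of 0.43 and 0.53. The promoter letters printed above divide differently, since TGANTCA was in Lor as well as in the Sprr1 genes and most Sprr2 genes.

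**Figure D4:**
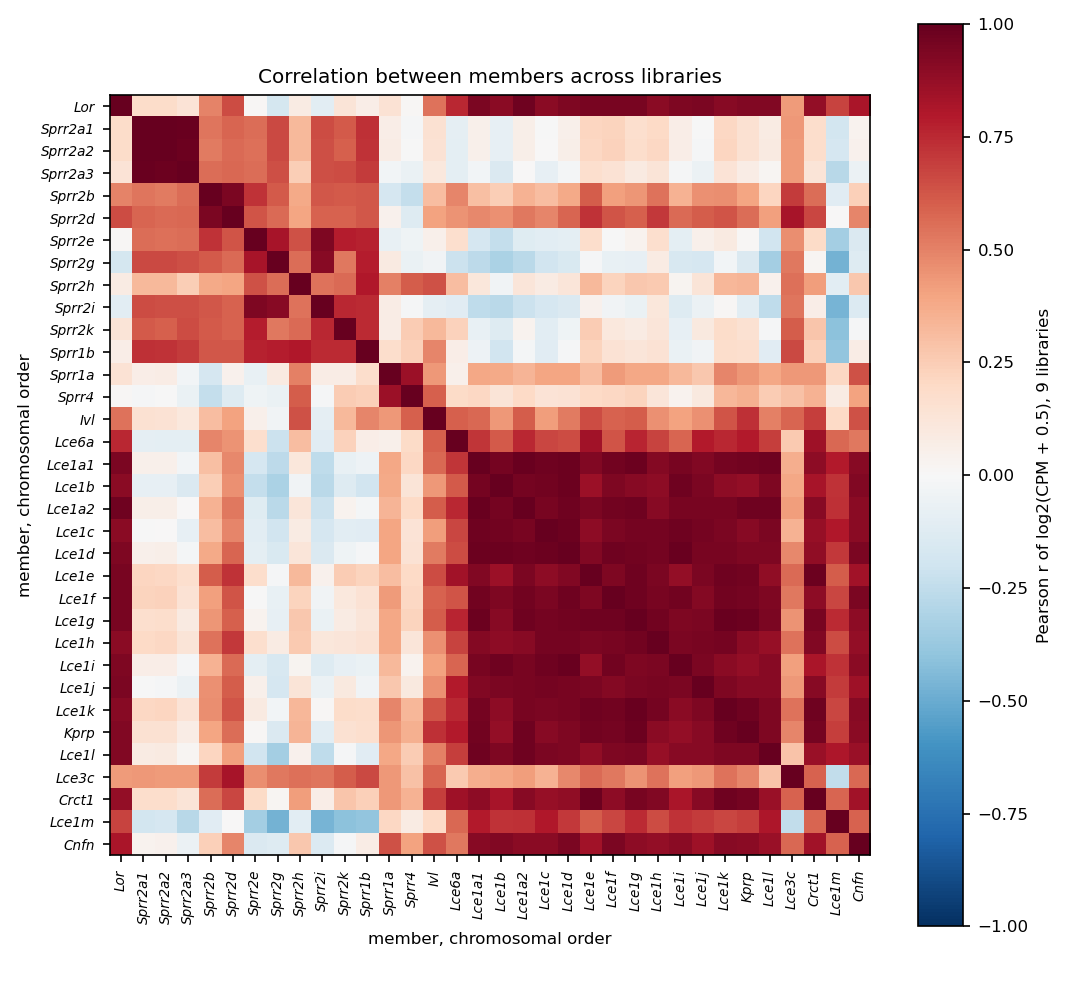
Pearson correlation of log2(CPM + 0.5) over 9 libraries between all pairs of the 34 tested members, in chromosomal order on both axes, from -1 (blue) to 1 (red). A block of Lce1 genes with Lor, Kprp, Crct1 and Cnfn (median 0.94 within Lce1) stands out. A looser block holds Sprr2 genes with Sprr1b (median 0.61 within Sprr2). Between Lce1 and Sprr2 genes the median is 0.05, but Sprr2d has 0.41 to 0.72 and Sprr2b 0.22 to 0.60 with the Lce1 genes other than Lce1m.

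**Figure D5:**
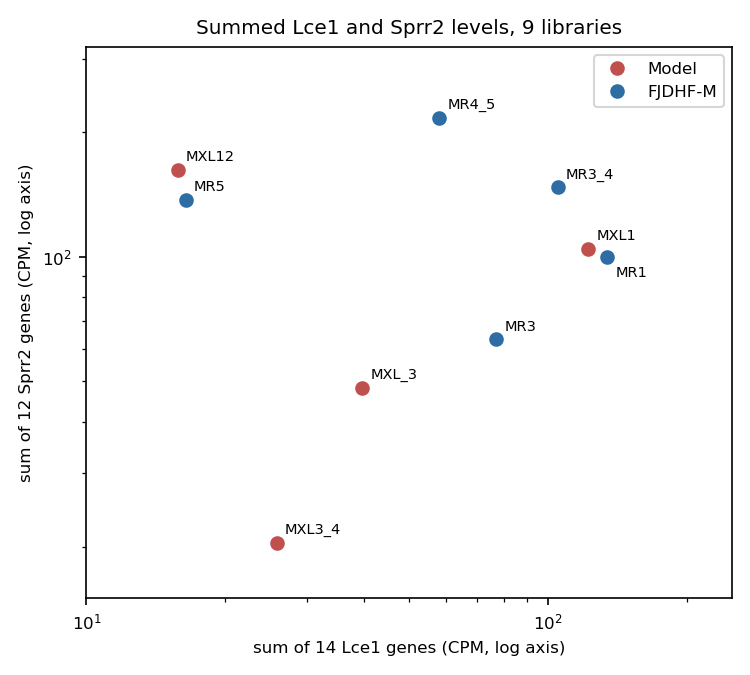
Summed level of the 14 Lce1 genes (x axis, CPM, log scale) against that of the 12 Sprr2 genes (y axis, CPM, log scale, mostly Sprr2a1 and Sprr2a2), 1 labelled point for each of 9 libraries, coloured by group. MR5 and MXL12 share the lowest Lce1 sums (16.4 and 15.8 CPM) with high Sprr2 sums (137 and 162 CPM), and both groups spread over the plot.

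Other genes of cornification were taken from lists chosen by function. Of 20 other envelope and keratin genes, all tested, 16 were higher and 4 lower in FJDHF-M, against 44.1% of all genes with a log2 fold change above 0. Their median log2 fold change was 0.43 against -0.03 over all genes. In edgeR 6 had an unadjusted p under 0.05, all on the higher side, where 0.773% of all genes lay. The 3 with the smallest p were Rptn (repetin, 1.87 ± 0.50 SE), Krt1 (the suprabasal keratin 1, 1.48 ± 0.41) and Flg (filaggrin, the keratin-bundling protein of the granular layer, 1.36 ± 0.40). Krt1 stood at 4505, 2562, 3149, 5358 and 8360 CPM in FJDHF-M and at 2836, 1498, 1567 and 945 CPM in Model. Its highest level was thus in MR5, the FJDHF-M library that was lowest in the Lce1 genes, Lor and Cnfn.

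Of 18 crosslinking and processing genes 17 were higher and 1 was lower, with a median of 0.41. At an unadjusted edgeR p under 0.05 were 3, all higher, against 0.773% of all genes. Casp14, the protease of filaggrin processing, stood at 587, 358, 526, 622 and 529 CPM in FJDHF-M and at 282, 205, 173 and 126 CPM in Model. Its groups thus did not overlap, as for 0.231% of all genes on the higher side. The log2 fold change was 1.42 ± 0.25 (SE), with an unadjusted edgeR p of 0.00021 and an adjusted p of 1.00. Alox12b, a lipoxygenase of the lipid envelope, gave 0.90 ± 0.32 and Klk5, a protease of desquamation, 0.97 ± 0.38. Of 25 tested regulators of differentiation 16 were higher and 9 lower, with a median of 0.09, and the smallest unadjusted p was that of Klf4 (0.62 ± 0.20), a transcription factor of the suprabasal layers. No gene of these lists passed the adjusted test. The medians of the first 2 lists were 0.77 and 0.87 without MXL1 and 0.20 and 0.24 without MXL_3, and that of the regulators lay between 0.01 and 0.24 with single libraries left out.

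Markers of other cells and states varied between libraries beside these values. The 15 basal keratinocyte markers had a median log2 fold change of -0.06 (6 higher, 9 lower) and a summed level of 3184 to 7115 CPM in FJDHF-M and 2601 to 8399 CPM in Model. The 12 tested markers of activated keratinocytes had a median of 0.59 (8 higher, 4 lower) and sums of 1146 to 4364 and 324 to 2568 CPM. At an unadjusted edgeR p under 0.05 were 3, all higher, against 0.773% of all genes. Those 3 were Il1f9 (an IL-36 cytokine, 0.79 ± 0.32 SE), Stfa3 (1.59 ± 0.65) and Serpinb3a (1.16 ± 0.50). The median of this list was 0.19 without MR4_5, 0.32 without MXL_3 and 1.20 without MXL12. All 10 fibroblast markers were lower on the mean, with a median of -0.41 and sums of 19056 to 33882 and 26633 to 47292 CPM, and the fibroblast median ranged from -0.49 to -0.26 with single libraries left out. Of 15 neutrophil markers 14 were lower, with a median of -0.84 and sums of 119.8 to 226 and 97.3 to 884 CPM. This rested on MXL12, without which 8 were higher and 7 lower, with a median of 0.05. Only Mmp8, a neutrophil collagenase, had an unadjusted edgeR p under 0.05 (-1.18 ± 0.33 SE), against 1.57% of all genes in either direction. Its groups did not overlap, as for 0.283% of all genes on the lower side. Medians for hair follicle, sebaceous gland, skeletal muscle, adipocyte, macrophage and T cell markers were 0.16, -0.20, -0.21, 0.17, 0.18 and 0.14. With single libraries left out, the hair follicle median ran from -0.46 to 0.57 and the skeletal muscle median from -0.59 to 1.22. The adipocyte, macrophage and T cell medians then ran from -0.22 to 0.37, -0.01 to 0.43 and -0.02 to 0.27. The sebaceous gland median stayed from -0.35 to -0.11. Skeletal muscle sums ran from 2334 to 11630 CPM in FJDHF-M and from 702 to 18900 CPM in Model. No tested marker list had a member at or under 3 counts in every library. The part of cell makeup in the members' levels was not tested.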

How the data were processed

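Libraries were made from polyadenylated RNA of mouse back skin, kept strand information and were read from both ends. The authors deposited whole-number read counts per gene for 55401 genes, without normalization, and FPKM values, scaled by the authors for length and depth, for 34637 genes. The submitters' processing notes name HISAT, StringTie, DESeq2 and mm10. Their roles, versions, the annotation and whether counting used strand are not given in the sources used here. A further 9 per-sample columns were not used.

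The members and gene lists were chosen with earlier results of these data known. Counts were tested over all 20817 genes that passed filterByExpr with edgeR 4.0.16 (TMM, quasi-likelihood test, no covariate, Benjamini-Hochberg, R 4.3.3). A call needed an adjusted p under 0.05 and a fold of at least 2. SE is the log2 fold change divided by the square root of F. Exact permutation tests used log2(CPM + 0.5). The edgeR, DESeq2 and limma fits and the exact permutation test were also run on simulated data, with an outcome that is not reported here. P-values set a group difference against the spread between these libraries, each taken as 1 mouse, which the codes do not establish.

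Alternatives were DESeq2 1.42.0, its size factors, no filter, at least 10 counts in every library, limma 3.58.1 on log2(FPKM + 1), a pseudocount of 0.1, summed subfamilies, a replicate block and leaving out each library. Named members are Lor, Ivl, Kprp, Cnfn and Crct1, the 10 with the highest mean CPM, the 10 with the smallest p, those whose groups do not overlap, and the extremes of each subfamily, with the 3 genes of smallest p of each other list, of which some are not reported here. Members outside this rule were named for their counts after their values were seen. Promoters and windows were read with Python 3.11.15 from RefSeq (GRCm38.p6) and GENCODE M21, in which all 41 members have the deposited positions, and figures drawn with matplotlib 3.10.9.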

Additional observations from a re-analysis of the deposited data

Results flagged for a closer look

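Of 44 comparisons of a single library with the rest of its group, over the named members, the Lce1 and Sprr2 sums and the library totals, 3 passed Dixon's 95% critical value, where chance alone would give 2.2. Sprr2g in the Model group was flagged because MXL12 lay far above the other 3 libraries, with a gap of 0.979 of the group's range on log2(CPM + 0.5). Sprr2b in the Model group was flagged for the same library, also on the high side, at 0.843. Cnfn in the FJDHF-M group was flagged because MR5 lay far below the other 4 libraries, at 0.795. The log2 fold change of Cnfn was between 0.55 and 1.69 when single libraries were left out.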

How the results depend on the processing

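No member was called under any setting. The groups did not overlap on the higher side for 1 member, for 0 with DESeq2, with its size factors in edgeR and with at least 10 counts in every library, and for 1 to 5 when a library was left out (2 without MR5, Ivl and Lce3c, and 5 without MXL12). Lce3c passed the filter only through FJDHF-M libraries, and so did Sprr2b, Sprr2g and Sprr2i in the fit without MXL12. Of all genes, 0.231% were apart on the higher side with all libraries, 0.719% without MR5 and 0.708% without MXL12. With single libraries left out this share ran from 0.336% (MR4_5) to 1.36% (MXL1). Members at an unadjusted p under 0.05 and at least 2-fold higher were 2, against 1 with at least 10 counts in every library, where Lce3c was not tested, and 1 to 13 when a library was left out. The share of all genes past this rule was 0.432% with all libraries and 0.355% with at least 10 counts in every library. It ran from 0.258% without MR1 to 1.25% without MXL1. The median log2 fold change of the members was 0.44 without MR1 and 1.26 without MXL1. On log2(FPKM + 1), Sprr2g (0.36), Sprr1a (0.0040) and Sprr4 (0.076) were above 0. With single libraries left out, log2 fold changes ranged from -0.54 to 3.23 for Sprr2g, from -0.29 to 0.36 for Sprr1a, from -0.60 to 0.19 for Sprr4 and from -0.96 to 0.59 for Lce1m, and the other 15 named members stayed above 0 where they were tested, which for Lce3c was in 5 of 9 fits, since without MR1, MR3, MR3_4 or MR4_5 it did not pass the filter. For the codes shared by both groups (1, 3 and 3_4), the correlations of deviations between the libraries were 0.22, 0.12 and -0.22. No reference from other library pairs was computed, so these values do not settle whether the codes pair the libraries. A replicate block on these 6 libraries gave 9 members at an unadjusted p under 0.05 and at least 2-fold higher, 5 without overlap and 0 called, where 0.606% and 2.32% of all genes passed the first 2 rules, with Sprr2g at 2.88 and Lce1m at 0.19. Unadjusted p was 0.0688 for Ivl and 0.0794 for Lce3c in that fit. Sprr2g and Lce3c passed the filter in it only through FJDHF-M libraries. The causes were not tested.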
